A study of Mus musculus with 28 samples.

Results

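Lipid and cholesterol metabolism genes were examined in ATAC-seq data of Müller cells, the main glial cells of the retina. The group consists of 41 genes out of 21853 protein-coding genes of the mouse annotation and was chosen by gene function: 12 genes of cholesterol synthesis and its control by SREBP, 9 genes of lipoproteins and cholesterol efflux, and 20 genes of fatty acid synthesis, uptake, storage and oxidation. A region was assigned to a gene when it overlapped the gene or 5 kb to each side, which gave 119 of 46189 regions in the control list and 148 of 64883 in the db/db list. No region lay in the windows of 2 of these genes at once.

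ATAC-seq marks open chromatin by letting a transposase insert sequencing adapters where DNA is accessible. Müller cells were purified from the retina by magnetic sorting at 6 months of age from wild-type mice, labelled WT and called controls here, and from db/db mice, which lack a working leptin receptor (Lepr mutated on both copies, in every cell) and develop obesity and type 2 diabetes. The methods of the study list wild type and db/+ animals as controls and 2 suppliers of founder mice, and the labels do not divide the samples by these. For each genotype a single list of peaks was analysed, that of the sample labelled replicate 1, and whether it was called on that sample alone is not given in the sources used here. No value therefore carries a replicate error, no test between genotypes was possible, and intervals of shares cover counting error only.

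Cholesterol is made from acetyl-CoA through a chain of enzymes whose genes are switched on by SREBP transcription factors. SCAP carries SREBP to the Golgi when sterols are low, and the INSIG proteins hold it back when sterols are high. Surplus cholesterol leaves cells through ABCA1 and ABCG1 onto lipoproteins such as APOE, under the control of the oxysterol-sensing liver X receptors, and glia are a major source of APOE in the retina and brain. Fatty acids are built by ACACA and FASN, lengthened and desaturated by ELOVL, SCD and FADS enzymes, and burned in mitochondria after entry through CPT1A and CPT2, a programme controlled by PPAR receptors.

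The db/db list was the longer one, with 20324 regions that no control region overlapped against 1920 control regions that no db/db region overlapped. How the signals of the lists were scaled is not given in the sources used here, so each region was described by its percentile, the share of regions of the same list with a lower signal. For changes between lists, the 43519 regions that overlapped exactly 1 region of the other list, and the other way round, were ranked among themselves from 0 to 100, and the rank in control was subtracted from the rank in db/db. Over all of these the SD of the change was 10.6 points. The promoters of 10 of 10 Müller cell marker genes were open in both lists, and each of their 34 control regions had a counterpart in db/db. Their ranks were not all stable, with a change of −15.3 points at the Glul promoter and of 3.8 at that of Rlbp1. The changes at the other Müller cell markers are not given here. Of coding promoters with the same region in both lists, 13.1% lost 10 points or more. Over all coding genes, 58.4% of promoters were open in control and 61.4% in db/db. Of 10 rod photoreceptor markers, 9 promoters were open in control and 6 in db/db. Of the 32 control regions of the rod markers, 14 (43.8%) had no counterpart in db/db, against 3.91% over all coding genes. Of 46 db/db regions at 10 vascular markers, 22 (47.8%) were absent from the control list, 10 of them at Flt1 alone, where the share over all coding genes was 29.1%. At microglia markers 5 of 20 db/db regions (25%) were absent, all at Cx3cr1, and 1 of 10 promoters was open in each list. Of 8 bipolar cell markers 4 promoters were open in control and 3 in db/db, and of 8 amacrine and ganglion cell markers 5 and 6. Gains of rank were seen at Gad2 (31.3 points), Vsx1 (13.9) and Rbpms (12.0), while changes at the other markers of these cells are not given here. A change in the mix of cells and a change in accessibility within a cell cannot be told apart in these lists, and the part of rods, other neurons, vascular cells and microglia in the results was not tested.

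The promoters of lipid metabolism genes were almost all open in both genotypes. A promoter was called open when a region overlapped the 1 kb to each side of a transcription start site (TSS) of a coding transcript, which held for 40 of the 41 genes in control and also for 40 in db/db (97.6% each, 95% Wilson interval 87.4% to 99.6%). Over all coding genes, 58.4% were open in control and 61.4% in db/db. The exception was the same gene in both lists. Fabp7, which encodes a fatty acid binding protein of glial and radial glial cells, had no region in its gene or within 5 kb of it in either list.

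**Figure D1:**
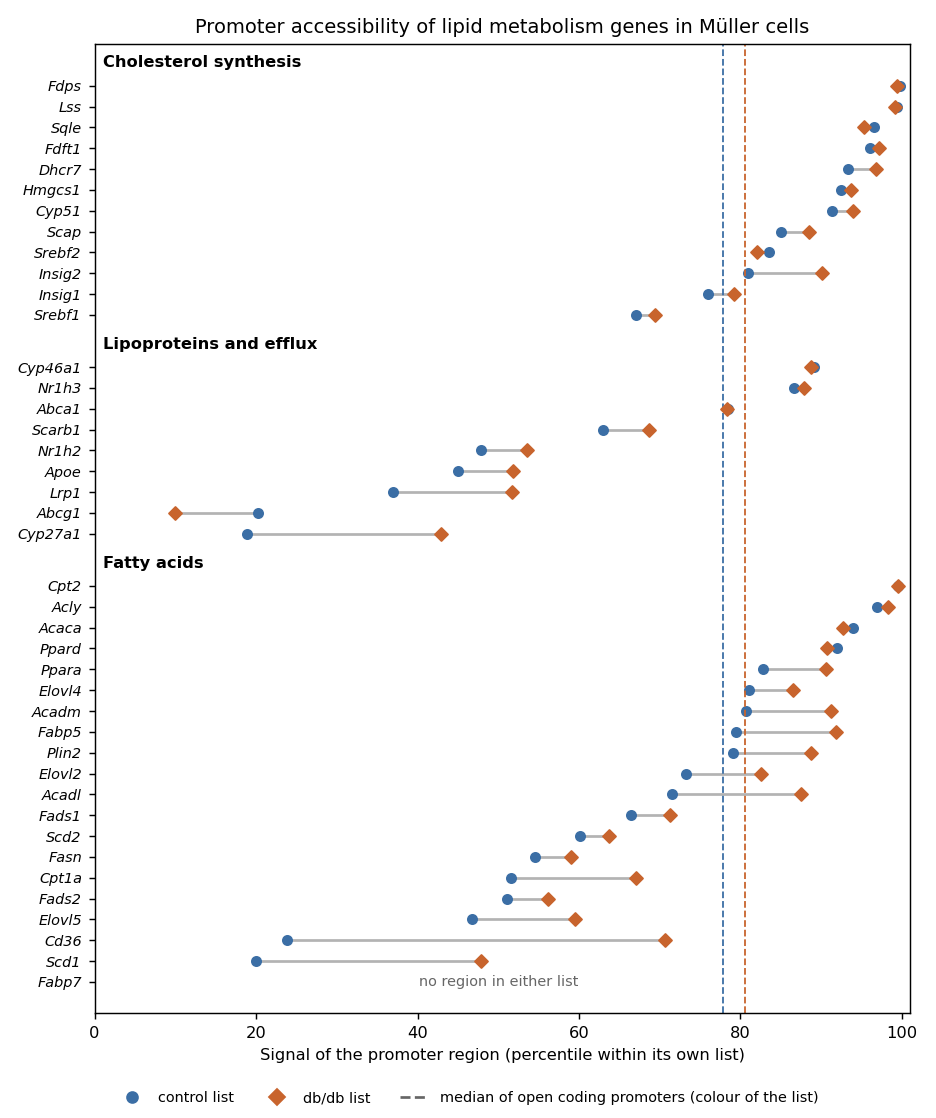
Promoter accessibility of the 41 genes by group. The x axis gives the percentile of the signal of the strongest promoter region within its own list, blue circles the control list, orange diamonds the db/db list, and dashed lines the medians of all open coding promoters (77.9 in control, 80.5 in db/db). The median of the cholesterol synthesis genes lay at 91.9 in control, that of the lipoprotein and efflux genes at 47.8.

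The height of the promoters by signal varied between the 3 groups of genes. The strongest promoter region of the 12 cholesterol synthesis genes had a median percentile of 91.9 in control (range 67.1 to 99.7) and 93.8 in db/db (69.4 to 99.4). The 9 lipoprotein and efflux genes stood lower, at a median of 47.8 in control (18.9 to 89.1) and 53.6 in db/db (10.0 to 88.8). The 19 open promoters of fatty acid genes lay between them at 73.3 in control (20.03 to 99.5) and 86.5 in db/db (47.9 to 99.5). For comparison, the open promoters of all coding genes had medians of 77.9 and 80.5. The added weak regions of db/db shift its percentiles upward, so a higher value there is not by itself a gain in accessibility. With the db/db list cut to the length of the control list, its medians were 81.1 for fatty acid promoters and 74.8 for all coding promoters. The low level of the lipoprotein and efflux genes depended on the measure, since ranked by −log10 p their medians were 80.6 in control and 85.4 in db/db, against 83.9 and 85.5 for all coding promoters, and the interval of their control median by signal, from order statistics, was 20.2 to 86.6. The order of the 3 groups stayed the same by −log10 p, with 97.1 and 97.6 for cholesterol synthesis and 90.1 and 92.6 for fatty acids. The top 10% of the list by signal held 27.8% of open coding promoters in control and 30.7% in db/db. It held 11 of the 40 open promoters of lipid genes in control (27.5%) and 15 in db/db (37.5%). These were divided unevenly, with 7 of 12 in control and 8 of 12 in db/db for cholesterol synthesis, none of 9 in either list for lipoproteins and efflux, and 4 of 19 and 7 of 19 for fatty acids.

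Among the cholesterol synthesis genes, Fdps had the strongest promoter, at percentile 99.7 in control and 99.4 in db/db. Fdps encodes farnesyl diphosphate synthase, and its region at chr3:89101669-89102302 (mm10) also covered the start site of the gene Gm43738. Lss, which encodes the lanosterol synthase that closes the sterol rings, reached 99.4 in control and 99.1 in db/db. Sqle, the squalene epoxidase of a rate-limiting step, lay at 96.6 and 95.3. These 3 promoters were thus among the strongest few percent of regions in both genotypes. Fdft1 (squalene synthase), Dhcr7 (the last step to cholesterol), Hmgcs1 (HMG-CoA synthase) and Cyp51 (lanosterol demethylase) followed between 91.3 and 96.0 in control and between 93.7 and 97.2 in db/db. The regulators ranked below the enzymes. Scap lay at 85.0 and 88.5, Srebf2, the SREBP that mainly drives cholesterol genes, at 83.6 and 82.1, Insig2 at 81.0 and 90.1, and Insig1 at 76.0 and 79.2. Srebf1, the SREBP of fatty acid synthesis, had the weakest promoter of the group in both lists, at 67.1 and 69.4.

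In the lipoprotein and efflux group, Cyp46a1 had the strongest promoter, at percentile 89.1 in control and 88.8 in db/db. Cyp46a1 encodes the hydroxylase that turns cholesterol into an oxysterol which can leave neural tissue. Nr1h3 (LXR alpha) lay at 86.6 and 87.9, while Nr1h2 (LXR beta) lay at 47.8 and 53.6. The efflux transporter gene Abca1 stood at 78.4 and 78.3, and the gene of the HDL receptor Scarb1 at 62.9 and 68.6. Apoe and its receptor gene Lrp1 had promoters near the middle of the lists, Apoe at 45.0 and 51.9 and Lrp1 at 36.9 and 51.7. The lowest percentiles in control belonged to Abcg1, an efflux transporter, at 20.2 and 10.0, and to Cyp27a1, a mitochondrial sterol hydroxylase, at 18.9 and 42.9.

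Among the fatty acid genes, Cpt2, the inner membrane carnitine transferase of fatty acid oxidation, was at percentile 99.5 in both lists. Acly, which supplies cytosolic acetyl-CoA, lay at 96.8 in control and 98.3 in db/db. Acaca, the acetyl-CoA carboxylase of the committed step of synthesis, lay at 93.9 and 92.6, in a region that also covered the start site of Tada2a. The receptor genes Ppard and Ppara followed at 91.9 and 82.7 in control and at 90.7 and 90.5 in db/db. The synthase gene Fasn was near the middle in both lists (54.6 and 59.0), as were Fads2 (51.1 and 56.1) and Scd2 (60.1 and 63.7). The elongase genes Elovl4 and Elovl2, which make very long and polyunsaturated chains, lay at 81.0 and 73.3 in control and at 86.5 and 82.6 in db/db, and Elovl5 at 46.7 and 59.6. Fads1, a desaturase gene beside Fads2, lay at 66.5 and 71.2. The oxidation genes Acadm and Acadl (the dehydrogenases of medium and long chains) stood at 80.7 and 71.5 in control and at 91.2 and 87.5 in db/db, and Cpt1a at 51.6 and 67.1. Fabp5, a fatty acid binding protein gene, and Plin2, the gene of a lipid droplet coat protein, lay at 79.5 and 79.0 in control and at 91.8 and 88.7 in db/db. The lowest promoters in control were Cd36, a fatty acid scavenger receptor, at 23.9, and Scd1, a desaturase, at 20.03, which lay at 70.7 and 47.9 in db/db.

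Regions away from the start sites did not share the height of the promoters. The 62 control and 90 db/db regions that touched no promoter window of any coding gene had a median percentile of 34.7 in both lists, against 39.1 in control and 40.7 in db/db for such regions of all coding genes. In control, 48 regions touched a promoter window of the lipid gene itself and 71 did not, 43 of them with the summit in an intron. In db/db, 49 did and 99 did not, of which 68 were intronic. The TSS nearest to the summit was that of the lipid gene itself for 96 of 119 control regions and 123 of 148 db/db regions.

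**Figure D2:**
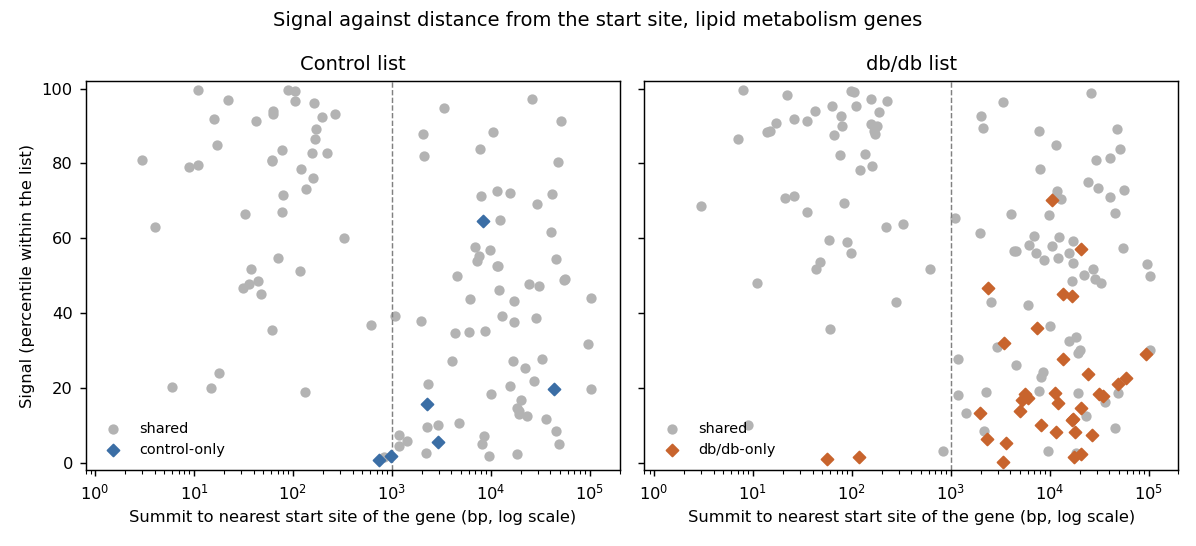
Signal of each region of the 41 genes (percentile within its list, y axis) against the distance of its summit from the nearest start site of the gene (bp, log axis), for the control list on the left and the db/db list on the right. Grey circles are regions present in both lists, coloured diamonds regions of 1 list only, and the dashed line marks 1 kb. The 35 db/db-only regions had a median percentile of 16.8.

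Promoter sequence was taken from RefSeq (assembly GRCm38.p6, the build of the lists), which held 43 windows for 32 of the 41 genes, each from 250 bases before to 50 bases after a start site. Not in that table were Fdps, Fdft1, Sqle, Scarb1, Abcg1, Scd1, Scd2, Fads1 and Fabp5. Windows were searched on both strands for the sterol response element TCACNCCAC (SRE, bound by SREBP), for AGGTCA repeated in the same orientation 4 bases apart (LXR element) or 1 base apart (PPAR element), each with 1 mismatch allowed in the 12 fixed bases, and for CCAAT (bound by NF-Y), GGGCGG (GC box, bound by SP factors) and CACGTG (E-box). The strings of the SRE, LXR and PPAR elements do not contain the other 3. The SRE string was found in 1 of 43 windows of the lipid genes, at Hmgcs1, against 1.20% of 20143 windows of 16515 coding genes. The LXR string was found in none of the 43 windows (0.199% of all windows) and the PPAR string in none (0.477% of all). Elements that differ from these strings at more bases than allowed were not counted. A window without a match, such as those of Abca1, Fasn and Srebf1, can therefore still hold an element of that kind. CCAAT was present in 20 of 43 windows (46.5%, against 37.8% of all), the GC box in 28 (65.1%, against 47.7%) and the E-box in 8 (18.6%, against 8.03%). Windows of the same gene can overlap, so these are not independent counts, and the same E-box of Scap was counted in more than 1 window. In the 16 windows of 9 cholesterol synthesis genes, the GC box was present in 13 (81.3%) and CCAAT in 9 (56.3%). By gene, all 9 had a GC box and 8 of 9 had CCAAT, where 51.0% and 42.1% of coding genes did, but these genes had more windows each than coding genes in general, which raises a share by gene. The E-box was found at Abca1, Dhcr7, Elovl4, Elovl5, Insig1, Plin2 and Scap. A string match is a description of the letters and not a measured binding site.

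The 250 bases before the start site are printed for 5 genes, 5′ to 3′ on the strand of the gene, with string matches on either strand in capitals (CCAAT and the GC box, or their reverse complements, and the SRE). Hmgcs1 is shown for its SRE, which begins 137 bases before the start site. Lss, Cyp46a1 and Acly are shown as the strongest promoters in control of the 3 groups among windows free of annotated exons in these bases, and Acadl because its promoter gained rank in db/db, as described further on. These last 4 were chosen after their values were seen.
Hmgcs1, chr13:119690101-119690350, plus strand: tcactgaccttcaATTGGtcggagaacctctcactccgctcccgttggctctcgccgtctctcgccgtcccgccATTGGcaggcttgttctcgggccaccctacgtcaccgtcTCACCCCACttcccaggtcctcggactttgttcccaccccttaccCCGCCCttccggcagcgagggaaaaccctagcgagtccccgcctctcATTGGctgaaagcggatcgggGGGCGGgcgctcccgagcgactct
Lss, chr10:76531355-76531604, plus strand: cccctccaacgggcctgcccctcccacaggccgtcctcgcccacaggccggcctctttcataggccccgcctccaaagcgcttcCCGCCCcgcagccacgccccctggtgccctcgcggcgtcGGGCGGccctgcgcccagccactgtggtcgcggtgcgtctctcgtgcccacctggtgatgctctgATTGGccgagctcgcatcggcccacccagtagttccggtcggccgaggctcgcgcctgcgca
Cyp46a1, chr12:108334066-108334315, plus strand: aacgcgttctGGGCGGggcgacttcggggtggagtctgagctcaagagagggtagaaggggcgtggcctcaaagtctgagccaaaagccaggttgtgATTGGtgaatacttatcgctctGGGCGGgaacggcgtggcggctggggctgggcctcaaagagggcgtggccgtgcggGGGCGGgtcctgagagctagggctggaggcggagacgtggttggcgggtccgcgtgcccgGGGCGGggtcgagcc
Acly, chr11:100528001-100528250, minus strand: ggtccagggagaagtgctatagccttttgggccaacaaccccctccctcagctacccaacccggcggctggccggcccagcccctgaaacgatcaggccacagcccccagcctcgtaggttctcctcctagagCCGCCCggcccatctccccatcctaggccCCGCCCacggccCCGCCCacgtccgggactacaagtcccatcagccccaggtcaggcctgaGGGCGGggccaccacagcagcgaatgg
Acadl, chr1:66863310-66863559, minus strand: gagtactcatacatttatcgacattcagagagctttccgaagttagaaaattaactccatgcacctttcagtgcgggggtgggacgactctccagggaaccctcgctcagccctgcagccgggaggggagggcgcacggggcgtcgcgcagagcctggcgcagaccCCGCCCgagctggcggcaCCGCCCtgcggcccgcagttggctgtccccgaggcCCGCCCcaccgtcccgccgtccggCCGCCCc
The Hmgcs1 stretch held 3 CCAAT and 2 GC box matches beside the SRE, and that of Acadl held 4 GC box matches and no CCAAT.

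The number of regions per gene was larger than is usual for coding genes. The median was 2 regions in control and 3 in db/db, against 1 in each list over all coding genes. That background includes genes without any region and was not matched for gene length. Of 21853 coding genes, 15387 had a region in control and 16133 in db/db, while 40 of the 41 genes here had one in each list. Acaca had the most, 10 in control and 14 in db/db, along a gene of 272 kb. Srebf2 had 8 and 10, Lrp1 7 and 12, and Scarb1 7 and 9. Of the 41 genes, 22 had the same number in both lists, 16 had more in db/db, and 3 had more in control, namely Srebf1 (5 and 4), Acadm (2 and 1) and Fabp5 (2 and 1). A single region was found at 12 genes in control and at 14 in db/db.

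**Figure D3:**
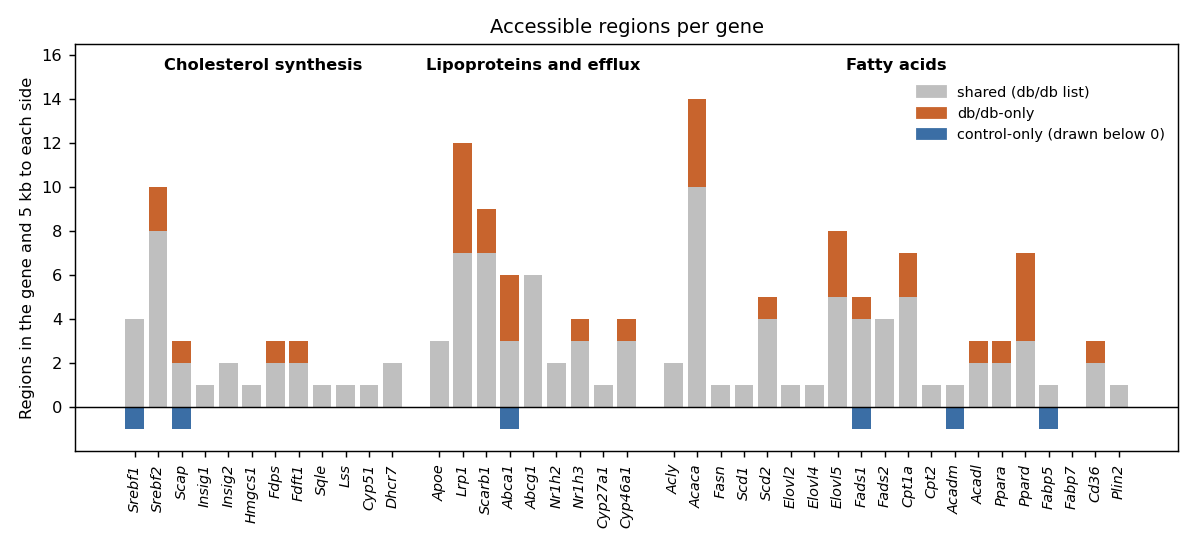
Number of regions in each gene and 5 kb to each side (y axis). Grey bars count db/db regions that overlap a control region, orange bars db/db-only regions stacked on them, and blue bars, drawn below 0, control-only regions. Lrp1 had 5 db/db-only regions, and 6 genes had 1 control-only region each.

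Few control regions of lipid genes were absent in db/db. They were 6 of 119 (5.04%, Wilson interval 2.33% to 10.6%), where 3.91% of the control regions of all coding genes were absent. Coding genes with the same numbers of regions would give 4.8 such regions. They were spread over the groups, with 2 of 29 regions in cholesterol synthesis, 1 of 36 in lipoproteins and efflux, and 3 of 54 in fatty acids. Most were weak, with a median percentile of 10.6, and 5 of the 6 lay in the lower part of the list, under percentile 50. The strongest, at percentile 64.5, was an intronic region of Acadm at chr3:153935856-153936406, 8383 bp from its start site. Acadm encodes the dehydrogenase of medium-chain fatty acids. The other 5 had percentiles of 19.6 or lower. They were intronic in Abca1 (chr4:53115892-53116283, percentile 19.6), Scap (chr9:110341816-110342464, 15.7), Srebf1 (chr11:60208943-60209666, 1.8) and Fads1 (chr19:10184163-10184435, 0.67), and the last lay 2946 bp upstream of Fabp5 (chr3:10009446-10009727, 5.4). Those of Srebf1 and Fads1 touched the promoter window, but in each gene a stronger promoter region was present in both lists.

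Regions present only in db/db made up 35 of the 148 db/db regions (23.6%, Wilson interval 17.5% to 31.1%). Over all coding genes the share was 29.1%, and coding genes with the same numbers of regions would give 41.9 such regions. By group, they were 5 of 32 in cholesterol synthesis, 12 of 47 in lipoproteins and efflux, and 18 of 69 in fatty acids. They were found at 18 genes, most often at Lrp1 (5), Acaca (4), Ppard (4), Abca1 (3) and Elovl5 (3). Summits of 27 lay in introns, and 2 regions touched a promoter window, those of Lrp1 (percentile 0.93) and Cpt1a (1.5). Most of them were weak too, as 33 of the 35 lay under percentile 50. The 2 exceptions were intronic regions of Acaca (chr11:84205664-84206334, percentile 70.2, 10523 bp from the start site) and of Ppara, the PPAR of fatty acid oxidation (chr15:85756519-85757084, percentile 57.1, 20650 bp from the start site). The share depended on the lengths of the lists. When only the db/db regions with the highest −log10 p were kept, to give both lists the same length, 7.08% of the db/db regions and 11.8% of the control regions of lipid genes were missing from the other list, against 11.6% and 12.1% over all coding genes.

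For the 113 such paired regions of lipid genes, the change in rank had a median of 0.18 points (interval from order statistics −0.67 to 2.36), against −0.08 over all coding genes. Of these, 11 were higher in db/db by 10 points or more (9.7%), where 12.1% of regions of coding genes were, and 9 were lower by as much (8.0%), where 12.4% were. These shares were thus no larger than the background. In the groups, 1 of 27 regions was higher and 2 lower in cholesterol synthesis, 3 and 5 of 35 in lipoproteins and efflux, and 7 and 2 of 51 in fatty acids. The limit of 10 points is a size and not a test. Just inside it lay an Elovl5 region with 10.0 and an Lrp1 region with −11.1, and just outside an Apoe region with 9.9 and the Fasn promoter with −9.7.

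**Figure D4:**
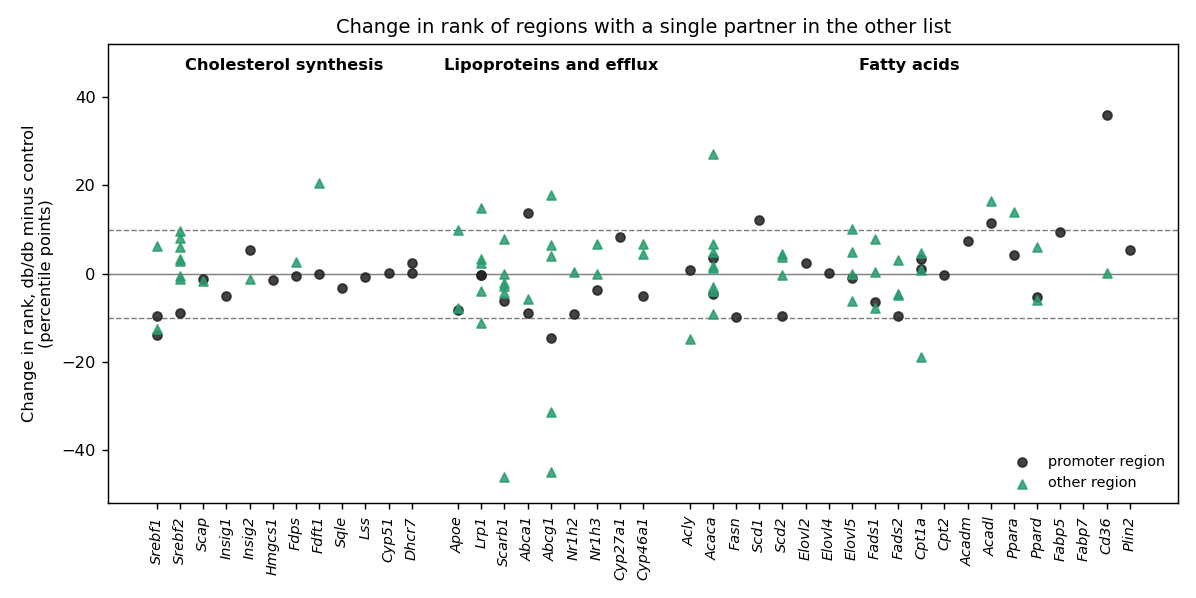
Change in rank between the lists (db/db minus control, percentile points, y axis) for each of the 113 paired regions, by gene. Black circles are regions touching a promoter window, green triangles other regions, and dashed lines mark 10 points in either direction. The region at the internal Cd36 start site was the furthest up at 35.8, and regions of Scarb1 and Abcg1 were the furthest down at −46.0 and −44.9.

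The largest losses of rank in db/db were found in introns of Scarb1 and Abcg1, both genes of cholesterol transport. A region in Scarb1 (chr5:125304374-125304802) fell from percentile 88.4 in control to 58.0 in db/db, a change in rank of −46.0 points. The Abcg1 gene held the next largest, a region at chr17:31103102-31103706 that fell from 55.3 to 19.1 (−44.9 points), and a region at chr17:31072983-31073802 that fell from 72.0 to 56.0 (−31.3 points). All 3 were larger than the SD of 10.6 points over all paired regions. They were picked as the largest falls, so this carries no weight, and there was no replicate list to set them against. A Cpt1a intron region (chr19:3353440-3354292) fell from 64.9 to 60.2 (−18.9 points). A region downstream of Acly (chr11:100472121-100473165), whose nearest start site is that of Klhl11, fell from 91.4 to 83.7 (−14.8 points). These 5 were also lower in db/db when percentiles of the whole list or ranks by −log10 p were compared. Both measures come from the same peaks and are no independent check.

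The largest gain was at a start site inside Cd36. This region (chr5:17849666-17849935) lies in an intron of the gene as annotated from its 5′ end, with its summit 18 bp before the start of shorter coding transcripts, and rose from percentile 23.9 in control to 70.7 in db/db, a change in rank of 35.8 points. The RefSeq start window of Cd36 (chr5:17835847-17836146) and the 5′ end of the gene held no region in either list. An intronic region of Acaca (chr11:84168634-84169243, with the nearest start site that of Gm11437) rose from 27.1 to 66.5 (27.1 points). Fdft1 gained in an intron (chr14:63164398-63165190), from 39.2 to 70.6 (20.6 points), while its promoter moved by −0.03 points. Abcg1 held a gain as well, in an intron at chr17:31086128-31086755, from 47.8 to 74.9 (17.9 points), so regions of this gene moved in both directions. A region in Acadl (chr1:66831964-66832670, nearest to the start site of Kansl1l) rose from 47.3 to 73.4 (16.4 points). These 5 were also higher by percentile of the whole list and by −log10 p. Both measures come from the same peaks, and by percentile of the whole list the median change over all coding genes was 7.94 points. They are therefore no independent check of these gains. Cd36 is also expressed by vascular cells and microglia. The share of db/db-only regions was 47.8% at vascular markers and 25% at microglia markers, against 29.1% over all coding genes. Many of the vascular ones lay at Flt1 alone, and all of the microglia ones at Cx3cr1. The part of such cells in the gain at Cd36 was not tested.

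For promoters, the strongest promoter region was the same in both lists at 39 genes, while at Dhcr7 a different one of its 2 promoter regions was strongest in each list. Of these 39, 14 ranked higher in db/db (35.9%) and 25 lower, where 37.9% of coding promoters ranked higher, and by percentile of the whole list, which the added weak regions of db/db shift upward, 75.6% of coding promoters were higher. The median change was −1.0 points, against −1.3 for all coding promoters. A gain of 10 points or more was seen for Cd36 (35.8, at its internal start site), Scd1 (12.2) and Acadl (11.4), which is 7.7% of the promoters against a background of 5.55%. A loss of as much was seen for Abcg1 alone (−14.6), 2.6% against a background of 13.1%.

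The balance of directions varied between the groups by rank among paired regions, and turned upward in all 3 groups when percentiles of the whole list were used. By rank, 2 of 11 cholesterol synthesis promoters were higher in db/db (median −1.2 points), 1 of 9 in lipoproteins and efflux (median −6.2), and 11 of 19 in fatty acids (median 0.84), and by percentile of the whole list 7 of 11, 6 of 9 and 17 of 19 were. In the efflux group, Apoe changed by −8.1 points, Nr1h2 by −9.1 and Abca1 by −8.9, and Cyp27a1 by 8.4, and of these Apoe and Nr1h2 changed by 6.9 and 5.8 points in percentile of the whole list. Within the fatty acid group a division by role, made after the values were seen, gave 7 of 9 promoters higher for uptake, storage and oxidation (median 5.4 points) and 4 of 10 for synthesis, desaturation and elongation (median −2.8), which became 8 of 9 and 9 of 10 by percentile of the whole list. By rank of −log10 p the counts were 8 of 9 and 2 of 10. Beside Cd36 and Acadl, the promoters of Fabp5 (9.5 points), Acadm (7.3), Plin2 (5.4) and Ppara (4.2) made up the higher ones, with Cpt1a (3.4). Each was higher under all 3 measures, which come from the same peaks and are not independent. The promoters of Fasn (−9.7), Scd2 (−9.7), Fads2 (−9.6) and Fads1 (−6.4) were lower by rank and by −log10 p but higher by percentile of the whole list. No test of this difference was possible with 1 list per genotype.

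A wider list of 54 further genes of the same pathways was examined in the same way. Their promoters were open for 50 in control (92.6%) and 51 in db/db (94.4%), against 58.4% and 61.4% over all coding genes. Without a promoter region in both lists were Apod (apolipoprotein D), Lpl (lipoprotein lipase) and Acsbg1 (an acyl-CoA synthetase), and Rxra, the partner receptor of LXR and PPAR, had one in db/db alone, at percentile 28.0. Of their 128 control regions, 7 had no counterpart in db/db (5.47%, against 3.91% over all coding genes), all intronic. There was 1 each at Vldlr, Rxra, Elovl6, Acsl6, Hadha, Ppargc1a and Dgat2, with percentiles from 2.5 at Rxra to 37.0 at Ppargc1a, the coactivator of oxidative metabolism. Of their 155 db/db regions, 34 were missing from the control list (21.9%, against 29.1% over all coding genes). The order of the groups by median was the same as among the 41 genes, since the promoters of the other cholesterol synthesis genes had medians of 93.8 in control and 96.0 in db/db, those of the other fatty acid genes 71.8 and 77.8, and those of the other lipoprotein and efflux genes 66.9 and 64.0. Unlike among the 9 lipoprotein and efflux genes, 4 of 11 open promoters in control (36.4%) and 4 of 12 in db/db (33.3%) of the latter were in the top 10% of the list. Over all coding genes these shares were 27.8% and 30.7%. In the 57 RefSeq windows of 45 of the further pathway genes, CCAAT was present in 32 (56.1%), the GC box in 38 (66.7%) and the E-box in 3 (5.26%). Of all windows, 37.8% held CCAAT, 47.7% the GC box and 8.03% the E-box. Of 116 paired regions, 9 ranked higher in db/db by 10 points or more (7.8%) and 12 lower (10.3%). These were again below the shares over all coding genes, 12.1% and 12.4%.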

How the data were processed

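Omni-ATAC libraries of Müller cells were sequenced by the authors with paired reads of 50 bp. Analysed here were narrowPeak lists, 1 per genotype, on mm10 per the labels. Each deposited row holds the authors' score, a signal that was read here as a ratio (fold enrichment), and the p and q of the peak caller as −log10. The peak caller, its threshold and any pooling of replicates are not given in the sources used here, and the depth of the libraries is unknown. The authors' signal was therefore compared within a list only. The score was not used for any result. The samples labelled replicate 2 and the RNA-seq samples were not analysed here.

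Overlapping rows were merged to 1 region that took the values of its strongest row, and regions were shared when they overlapped by at least 1 bp. Genes came from GENCODE M21. Python 3.11.15, numpy 2.4.6, pandas 2.3.3, scipy 1.17.1 and matplotlib 3.10.9 were used. The steps were tested on simulated data of 26800 regions, where all 800 control-only and 6000 db/db-only regions were recovered and a planted change of 15 points came back as 15.3.

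The genes, lists and measures were chosen with earlier results of these data known. Named were genes without a promoter region, those with a control-only region, the 3 strongest promoters in control per group, the 5 largest rises and falls in rank, db/db-only regions in the upper part of the list (percentile 50 or higher), and the 3 genes with most regions. Other genes were named to account for each group, after their values were seen. The expected counts for coding genes with the same number of regions are a description, with no resampling. Alternatives were other promoter windows, flanks, overlaps, thresholds and ranks, and lists of equal numbers.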

Additional observations from a re-analysis of the deposited data

How the results depend on the processing

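Of 72 values recomputed under 14 settings in all, 58 stayed within the interval of the reported value (for counts, within 1.5 times of it) and 14 moved out of it. With lists of equal numbers, 11.8% of control regions and 7.08% of db/db regions of lipid genes were missing from the other list, and the median promoter percentile of lipoprotein and efflux genes in db/db was 34.8 (chosen after seeing the data). Ranked by −log10 p, the median percentile of all regions of lipid genes was 64.8 in control and 64.2 in db/db, that of cholesterol synthesis promoters 97.1 and 97.6, that of fatty acid promoters 90.1 and 92.6, and that of lipoprotein and efflux promoters 80.6 and 85.4, over 1.5 times the values by signal (47.8 and 53.6) but inside their wide intervals. By percentile in the whole list, the median change was 8.55 (all coding genes 7.94), since the db/db list holds more weak regions. Of the 113 paired regions, 47 were then higher and 4 lower by 10 points. Over all coding genes, 42.7% of paired regions were higher and 2.18% lower by as much. With only regions whose nearest start site was that of a lipid gene, 7 were higher, where 11.4% of paired regions of coding genes were. With 10 kb flanks 14 were lower, where 12.6% of those of coding genes were. The numbers of paired lipid regions under these settings are not given here. For the other moved values the cause was not tested. The number of open promoters ranged from 37 to 40 in control and from 38 to 40 in db/db over the 5 alternatives. The median change lay between −0.21 and 1.22 under the alternatives other than the percentile in the whole list, so its sign was not fixed. Without replicate lists or read counts, differences of rank cannot be set against biological spread. No paired analysis was possible because 1 list per genotype was analysed here.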
